A study of Drosophila melanogaster with 12 samples.

Results

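The 10 genes described here encode antimicrobial peptides of Drosophila melanogaster or their close relatives: Dro, Drs, Mtk, AttA, AttC, AttD, DptB, Drsl2, Drsl5 and Drsl6. They were taken by their FlyBase symbols from a table of read counts for 17807 genes, and all 10 were found there. Salivary glands of prepupae were sampled at 12 and 14 h after pupariation in 2 genotypes, which gave 4 groups of 3 libraries. Controls had the genotype w1118 fkh>GFP with a single mutant allele of E93, E93Δ1, over a wild-type chromosome. Mutants had w1118 fkh>GFP with the allele pair E93Δ12/E93Δ13. All 12 libraries therefore came from a w1118 background with fkh>GFP, a reporter driven by the fkh promoter in the salivary gland, and no group was without an E93 mutant allele. E93 (Eip93F) encodes a transcription factor induced by ecdysone, the steroid whose pulses time metamorphosis. Whether libraries of 1 group were made from different animals or pools is not in the labels, so the p-values measure the spread between these libraries, which may be technical.

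Antimicrobial peptides are small, mostly secreted proteins that kill or inhibit bacteria and fungi. In the fat body they are induced through the Imd pathway, which ends in the NF-kappaB factor Relish and drives attacins, diptericins and drosocin, and through the Toll pathway, which acts through Dif and Dorsal and drives drosomycin and the Bomanins. Epithelia, salivary glands among them, also produce some of these peptides without a systemic infection.

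Library totals ran from 6977403 to 9497317 counts. Levels are CPM, counts scaled to a library of 1e+06 counts, after TMM scaling, which adjusts each library total for differences in RNA composition. A count of 0 allowed a level of up to 0.281 to 0.519 CPM, the level of 3 counts, a limit for counting error alone. Eip93F counts checked the labels only in part, since counts over the whole gene do not show whether the RNA encodes a working protein: its level was 1170 to 2080 CPM in 12 h controls, 3870 to 4310 in 12 h mutants, 775 to 893 in 14 h controls and 1950 to 2020 in 14 h mutants. All 10 salivary gland markers had counts in every library, with a summed level of 116 to 257 CPM. The 9 fat body markers summed to 150 to 276 CPM at 12 h and 423 to 682 at 14 h, and the 8 muscle markers to 337 to 1360 at 12 h and 180 to 292 at 14 h, so the libraries also held RNA of genes that mark other tissues. In such libraries, fewer cells of a type and less RNA per cell cannot be told apart.

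Some libraries stood apart. The 12 h control replicate 1 lay at -3.2 on the first principal component of all tested genes, against -55.2 and -62.1 for the other 12 h controls and 60.4 to 64.4 for the 14 h controls. Replicate 1 of the 12 h mutants and replicate 2 of the 14 h mutants had summed levels of 11 midgut markers of 239 and 112 CPM, against 11.8 to 43.6 in the control libraries. Values without them are given below where they move a result on the members.

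Of the 10 genes, 7 had counts enough to be tested (Dro, Drs, Mtk, AttA, AttD, Drsl5 and Drsl6) and 3 did not (AttC, DptB and Drsl2). A gene could pass the filter through 1 group alone, so the 7 are not a neutral sample of the 10. The test was edgeR's quasi-likelihood F test on all 12 libraries, with Benjamini-Hochberg adjustment over 7584 genes. A gene was called at an adjusted p under 0.05.

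**Figure D1:**
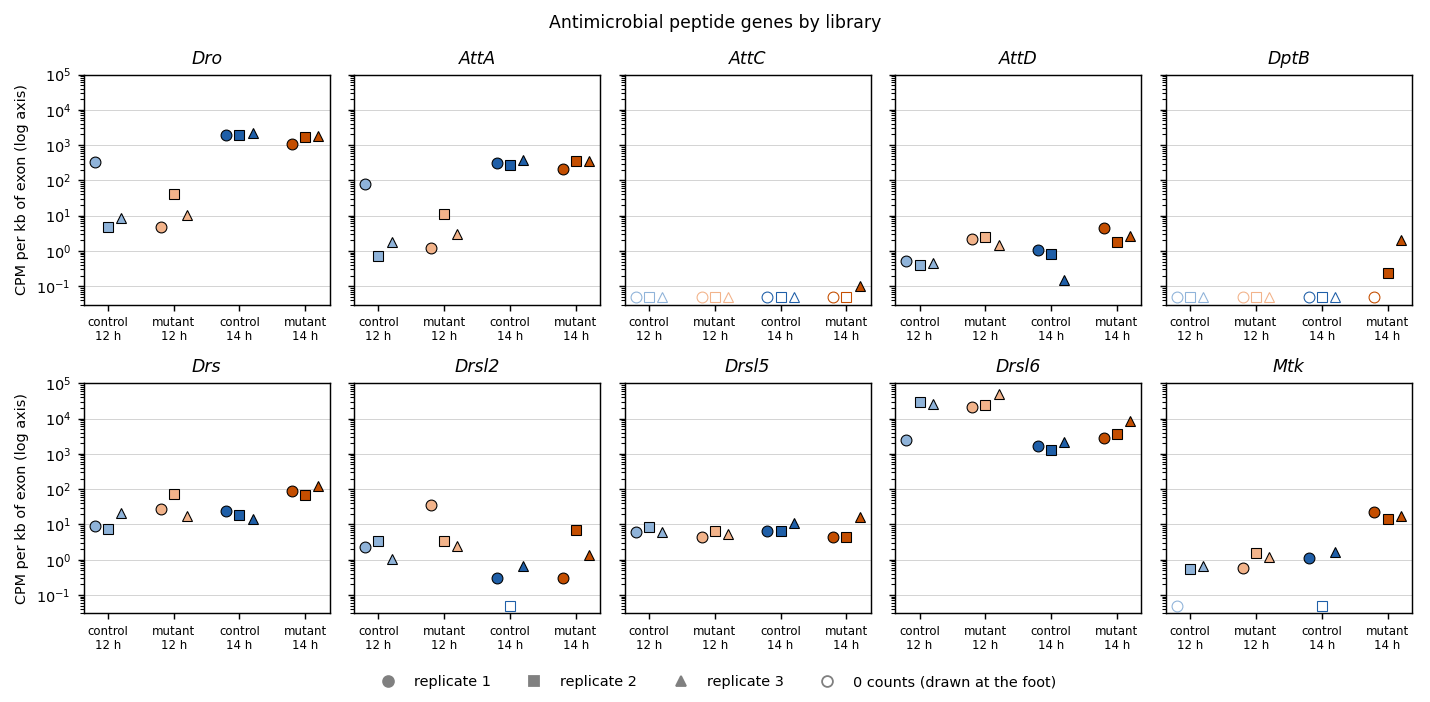
Level of each of the 10 genes in every library, in TMM-scaled CPM per kb of exon on a log axis, by genotype and time; 1 symbol is 1 library, and open symbols at the foot are libraries with 0 counts. Mtk was at 13.9 to 22 CPM per kb in mutants at 14 h and at 1.66 or less in the other libraries, while Dro was at 1070 to 2270 in all 14 h libraries and at 340 in 1 of the 12 h controls.

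Dro and AttA were higher at 14 h than at 12 h in both genotypes, and their levels moved together. Dro encodes drosocin, a proline-rich peptide active against Gram-negative bacteria, and AttA encodes an attacin, a glycine-rich peptide of similar range. On build BDGP6 Dro (FBgn0010388) lies at 2R:14745961-14746714 and AttA (FBgn0012042) at 2R:14747362-14748215, both on arm 2R, with 647 bases between the annotated genes. AttB, a near-identical copy of AttA, follows after a further 1007 bases. Reads from AttA and AttB could be split between the copies, so each is uncertain on its own.

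Dro stood at 256, 3.6 and 6.39 CPM in controls at 12 h and at 3.52, 31 and 7.89 CPM in mutants at 12 h. At 14 h it was 1500, 1440 and 1710 CPM in controls and 806, 1310 and 1380 CPM in mutants. Each 14 h library was above each 12 h library. The single high value among the 12 h libraries was that of control replicate 1, and within mutants at 12 h replicate 2 was the highest.

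From 12 to 14 h Dro rose by 4.12 on the log2 scale in controls (SE 1.27, edgeR adjusted p = 0.0195) and by 6.35 in mutants (SE 1.42, adjusted p = 0.00324). Without the 12 h control replicate 1 the rise in controls was 8.22, and in a fit of the control libraries alone its adjusted p was 0.0513. Among the 7 tested members, 2 were higher and 1 lower at 14 h in controls, where 43.2% of all tested genes were called, 20.8% higher and 22.4% lower. In mutants 3 were higher and 1 lower, where 45.1% of all tested genes were called, 22.6% higher and 22.4% lower. Mtk, among the 3 that were higher, passed the filter only through the 14 h mutants. The median log2 change of the 7 was 0.61 in controls and 1.23 in mutants, beside medians of 0.12 and 0.14 over all tested genes. The balance of the background depended on scaling: 48.1% of the called genes were higher at 14 h in controls and 50.2% in mutants, but 74.2% and 74.9% with library size alone.

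AttA was high and low in the same libraries as Dro. It stood at 60.6, 0.576 and 1.38 CPM in controls at 12 h and 0.96, 9.01 and 2.42 CPM in mutants at 12 h. Values at 14 h were 250, 218 and 291 CPM in controls and 172, 289 and 278 CPM in mutants. The times did not overlap in either genotype. The log2 rise was 3.58 in controls (SE 1.13, edgeR adjusted p = 0.0224) and 5.87 in mutants (SE 1.3, adjusted p = 0.00306), and without the 12 h control replicate 1 the rise in controls was 7.97. The call in controls was lost without the 12 h control replicate 3 (3.06, adjusted p = 0.0538), without the 14 h control replicate 3 (3.47, adjusted p = 0.052) and in a fit of the control libraries alone (3.58, adjusted p = 0.0608).

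Over the 12 libraries the log2 levels of Dro and AttA had a Pearson r of 1.00, a description over libraries that share 2 genotypes and 2 times. Their count ratio stayed between 3.27 and 6.59, while Dro itself ran from 3.52 to 1710 CPM. AttB was 29.5, 0.288 and 0.519 CPM in controls at 12 h and 148, 137 and 175 CPM in controls at 14 h. In the mutants AttB stood at 0.64, 5.86 and 0.805 CPM at 12 h and 53.8, 85.1 and 84.7 CPM at 14 h. The count ratio of AttA to AttB was 1.59 to 1.68 in controls at 14 h and 3.19 to 3.39 in mutants at 14 h, without overlap. With AttA and AttB summed as 1 gene, the rise was 3.7 in controls (edgeR adjusted p = 0.0256) and 5.59 in mutants (adjusted p = 0.00493).

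Of the 9 fat body markers, 4 were called higher at 14 h in controls and 7 in mutants, with none lower, where 20.8% and 22.6% of all tested genes were called higher. In the 12 h control replicate 1 their summed level was 217 CPM, against 157 and 225 in the other 12 h controls. The 8 muscle markers summed to 337 CPM in that library, against 1280 and 1350, and the 10 salivary gland markers to 232, against 116 and 119. The 8 trachea and cuticle markers summed to 541 CPM in that library, against 222 and 120 in the other 12 h controls. In controls at 14 h they summed to 1060 to 1130 CPM, but their median log2 change with time was -0.12, with 2 called higher and 1 lower. In mutants they summed to 114 to 305 CPM at 12 h and 399 to 425 at 14 h, with a median log2 change of 0.06. The part of these cell types in the rise of Dro and AttA was not tested.

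**Figure D2:**
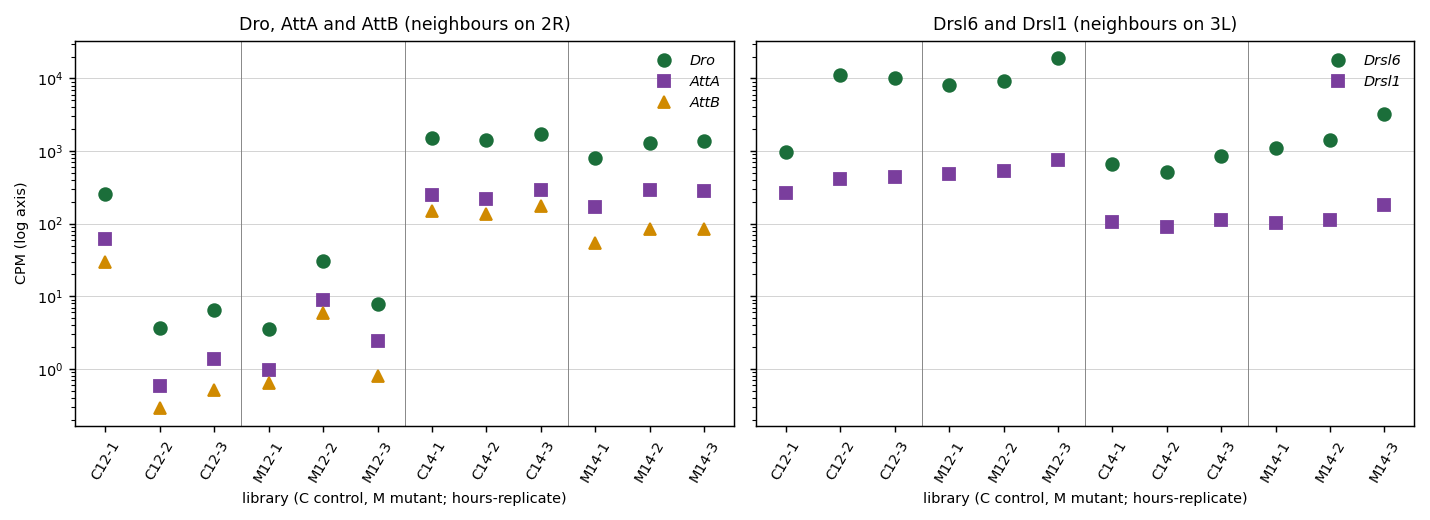
Levels of the neighbouring genes Dro, AttA and AttB (left) and Drsl6 and Drsl1 (right) in every library, in TMM-scaled CPM on a log axis; C and M stand for control and mutant, and 1 symbol is 1 gene in 1 library. On the left the 14 h libraries lie above the 12 h libraries with the 12 h control replicate 1 (Dro at 256 CPM) between them, and on the right Drsl6 in that library (984 CPM) lies near the 14 h libraries.

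The genotype difference of Dro and AttA was not called at either time with all 12 libraries. At 12 h the fitted log2 difference, mutant against control, was -2.64 for Dro (SE 1.22, edgeR adjusted p = 0.166) and -2.33 for AttA (SE 1.19, adjusted p = 0.212). Both signs rested on the 12 h control replicate 1: without it the differences were 1.48 for Dro (adjusted p = 0.201) and 2.09 for AttA (adjusted p = 0.136). Without all 3 libraries that stand apart AttA was called higher in mutants at 12 h (2.55, adjusted p = 0.0385), and Dro was at 1.95 (adjusted p = 0.0573). At 14 h the 3 Dro values of the mutants lay below those of the controls, with means of 1160 ± 312 and 1550 ± 143 CPM (SD, n = 3), but the log2 difference of -0.41 was smaller than its SE of 1.12. AttA differed by -0.04 at 14 h (SE 1.01, edgeR adjusted p = 0.987), and its libraries overlapped.

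AttD did not follow Dro and AttA. It encodes an attacin without a signal peptide, and the gene (FBgn0038530) lies apart from the others at 3R:17625268-17626086. Its counts were low: 3, 2 and 2 in controls at 12 h, 10, 13 and 7 in mutants at 12 h, 8, 6 and 1 in controls at 14 h and 32, 12 and 21 in mutants at 14 h. In CPM these were 0.384, 0.288 and 0.346, then 1.6, 1.86 and 1.13, then 0.792, 0.627 and 0.111, then 3.26, 1.32 and 1.96. Mutant libraries were above control libraries at both times without overlap.

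AttD was higher in mutants by 2.12 on the log2 scale at 12 h (SE 0.63, edgeR adjusted p = 0.0396) and by 2.05 at 14 h (SE 0.53, adjusted p = 0.0195). It passed the filter only through mutant libraries, so its direction is a description of what the filter kept. Among the alternatives that gave a value, the 12 h call was lost in 15 of 25 and the 14 h call in 5 of 26. The 12 h call was lost without any 1 of the 6 libraries at 12 h (1.93 to 2.29, adjusted p 0.0533 to 0.113) and without control replicate 1, control replicate 2 or mutant replicate 3 at 14 h. The 14 h call was lost without control replicate 2 (2.2, adjusted p = 0.0697), control replicate 3 (1.59, adjusted p = 0.0716), mutant replicate 1 (1.64, adjusted p = 0.112) or mutant replicate 3 (2.11, adjusted p = 0.0534) at 14 h. Between the times AttD was not called in either genotype (log2 0.58 in controls and 0.51 in mutants).

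AttC and DptB were close to absent. AttC (FBgn0041579, 2R:13393705-13394667), another attacin, had a single count in all, in the 14 h mutant replicate 3. DptB (FBgn0034407, 2R:18867391-18867895), a diptericin, had 1 count in the 14 h mutant replicate 2 and 10 in replicate 3, and 0 in the other 10 libraries. DptA, its neighbour after 1130 bases, had 9 and 20 counts in the same 2 libraries and at most 4 in any other. Neither AttC nor DptB could be tested, and at this depth a level under the floor was not detectable.

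Drs was higher in the mutants at both times. It encodes drosomycin, an antifungal peptide that the Toll pathway induces in the fat body and that epithelia also produce. Its gene (FBgn0283461) lies at 3L:3369556-3369942. At 12 h Drs stood at 3.45, 2.88 and 8.12 CPM in controls and 10.4, 29 and 6.6 CPM in mutants. Its 14 h values were 9.2, 7.21 and 5.32 CPM in controls and 33.6, 26.7 and 48.4 CPM in mutants. The genotypes overlapped at 12 h through mutant replicate 3 and did not overlap at 14 h.

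The log2 difference of Drs was 1.7 at 12 h (SE 0.53, edgeR adjusted p = 0.0493) and 2.32 at 14 h (SE 0.51, adjusted p = 0.00818). The 12 h call was lost in 18 of 27 alternatives, and without the 12 h mutant replicate 2 the difference was 0.8 (adjusted p = 0.279). Leaving out single libraries, it held without replicate 3 of either genotype at 12 h and was lost without any 1 of the other 10 libraries. The 14 h call held in all 27, with a range of 2.05 to 2.53 when each library was left out. Between the times Drs was not called in controls (log2 0.61, adjusted p = 0.383) or in mutants (log2 1.23, adjusted p = 0.0575). Without the 12 h mutant replicate 2 the mutant time difference was 2.05 (edgeR adjusted p = 0.00525).

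Mtk had the largest genotype difference of the 7 tested members at 14 h. Mtk encodes metchnikowin, a proline-rich antifungal and antibacterial peptide that responds to both pathways, and the gene (FBgn0014865) lies at 2R:15408846-15409113. Its counts were 0, 1 and 1 in controls at 12 h, 1, 3 and 2 in mutants at 12 h and 3, 0 and 4 in controls at 14 h. In the 14 h mutants they were 58, 34 and 48, or 5.91, 3.73 and 4.49 CPM. The group mean there was 4.71 ± 1.1 CPM (SD, n = 3), against 0.247 ± 0.226 in controls at 14 h.

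At 14 h Mtk was 4.19 higher in mutants on the log2 scale, 18.2-fold (SE 0.61, edgeR adjusted p = 0.000512). From 12 to 14 h it rose by 3.87 in mutants (SE 0.63, adjusted p = 0.000378) and was not called in controls (log2 1.2, adjusted p = 0.375). The control libraries and the 12 h mutants held 0 to 4 counts each, so these folds rest on few reads on their lower side. Mtk passed the filter only through the 14 h mutants, so its direction in both comparisons is a description of what the filter kept. The 14 h genotype call held in all 26 alternatives that gave a value, and leaving out each library gave 3.62 to 4.82. Its genotype effect at 14 h exceeded that at 12 h by 2.68, which was not called (adjusted p = 0.525).

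The Bomanins, short peptides needed for Toll-dependent defence, had the same libraries high as Mtk. Over all 12 Bomanin genes the summed counts were 489, 309 and 332 in mutants at 14 h. Over whole groups they were 12 in controls at 12 h, 21 in mutants at 12 h, 18 in controls at 14 h and 1130 in mutants at 14 h, beside 2, 6, 7 and 140 for Mtk. BomT2 was at 0 in the other 9 libraries and had 9, 8 and 20 counts in mutants at 14 h, too few to pass the filter. Of the Bomanins, BomS1, BomS2, BomS3 and BomBc1 were tested.

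With few counts in the other groups, these 4 passed the filter only through the 14 h mutants, so their direction at 14 h is a description of what the filter kept. The log2 difference from 14 h controls was 6.21 for BomS1 (SE 0.67, edgeR adjusted p = 0.000139), 6.15 for BomS2 (SE 0.94, adjusted p = 0.00136), 6.11 for BomS3 (SE 0.72, adjusted p = 0.000105) and 5.19 for BomBc1 (SE 0.7, adjusted p = 0.00031). Control counts of each were 0 to 4 per library at 14 h, so these fitted differences depend on the prior count and are no bounds. None of the 4 was called between genotypes at 12 h.

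**Figure D3:**
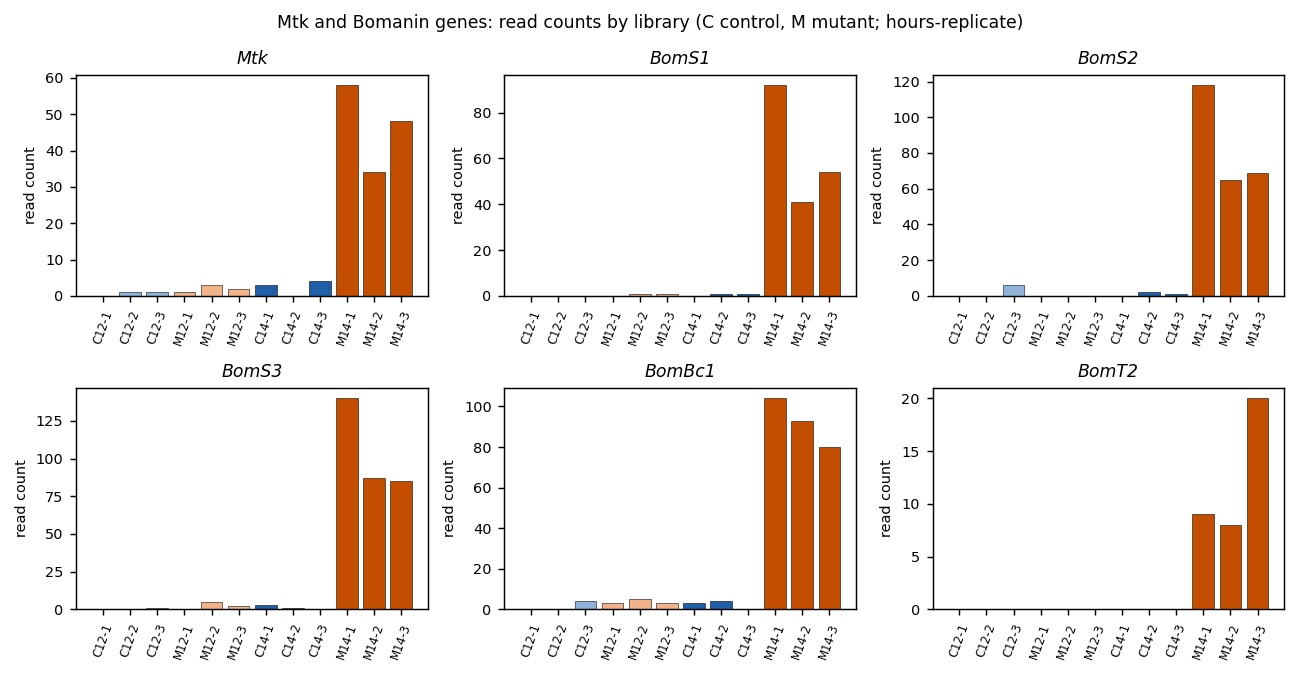
Read counts of Mtk and of 5 Bomanin genes in every library, 1 bar per library, with C for control and M for mutant; each panel has its own scale from 0. The 14 h mutants had 34, 48 and 58 Mtk counts and the other 9 libraries at most 4, and for BomT2 the other 9 libraries were at 0.

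Markers of other cells were examined in the same libraries. The 9 fat body markers summed to 507 to 556 CPM in controls at 14 h and 423 to 682 in mutants at 14 h, with 1 of 9 called higher (Fbp1, log2 0.8, edgeR adjusted p = 0.0423). The 10 hemocyte markers summed to 986 to 1040 CPM in controls at 14 h and 871 to 901 in mutants at 14 h, most of it crq. Without crq the ranges were 19.2 to 21.7 and 18.1 to 22.8 CPM. Of the 10 hemocyte markers 5 were tested at 14 h, with none called higher, 1 called lower (Pxn, log2 -1.54, adjusted p = 0.00833) and a median of -0.19, and crq was lower without overlap but not called (log2 -0.19, adjusted p = 0.47). Among those with too few counts to be tested, He had 9, 8 and 14 counts in mutants at 14 h against 0, 0 and 1 in controls at 14 h, and PPO1 had 5, 7 and 7 against 0 in each. These 2 of the 5 untested hemocyte markers were picked after their values were seen and do not stand for the list. The other untested ones are not listed here. Of all 10, 2 were at 0 counts in each 14 h mutant library, and 2 to 3 in the 14 h controls. The 8 trachea and cuticle markers summed to 1060 to 1130 CPM in controls at 14 h and 399 to 425 in mutants, and the 8 muscle markers to 180 to 200 and 270 to 292, both without overlap. The median log2 differences of these lists, mutant against control, were 0.42 and 0.81. For the trachea and cuticle markers the sum was therefore lower in mutants and the median higher. Of the trachea and cuticle markers knk was called lower (log2 -2.02, adjusted p = 0.0186) and serp higher (log2 0.89, adjusted p = 0.0436), and no muscle marker was called. Of the 10 salivary gland markers, 5 were called higher in mutants at 12 h and 2 at 14 h, with none lower. Over all tested genes, 7.94% were called higher at 12 h, and 8.29% higher and 6.91% lower at 14 h. The part of any of these cell types in the genotype differences of Mtk, Drs, AttD and the Bomanins was not tested.

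Per kb of exon, Drsl6 was the most abundant of the 10 at 12 h. Drsl2, Drsl5 and Drsl6 are relatives of drosomycin in a cluster on arm 3L, with Drsl2 (FBgn0052279) at 3L:3314349-3314681, Drsl5 (FBgn0035434) at 3L:3316781-3317144 and Drsl6 (FBgn0052268) at 3L:3336032-3336418 on the reverse strand. Between the annotated genes, 243 bases separate Drsl6 from Drsl1 and 33137 bases separate it from Drs. Its 12 h values were 984, 11300 and 10300 CPM in controls and 8100, 9360 and 19000 CPM in mutants. At 14 h they were 666, 510 and 849 CPM in controls and 1110, 1420 and 3280 CPM in mutants. The 12 h control replicate 1 had the lowest 12 h value.

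From 12 to 14 h Drsl6 fell, with a log2 change of -3.48 in controls (SE 0.75, edgeR adjusted p = 0.00257) and -2.65 in mutants (SE 0.72, adjusted p = 0.00985). Without the 12 h control replicate 1 the change in controls was -4.07. Drsl1, its neighbour, fell as well, with a log2 change of -1.86 in controls (adjusted p = 0.000206) and -2.17 in mutants (adjusted p = 7.26e-05). The count ratio of Drsl6 to Drsl1 was not fixed: it was 16.6 to 27.3 in the 12 h libraries other than control replicate 1, where it was 3.7, and 5.7 to 17.9 at 14 h.

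The genotype difference of Drsl6 depended on which libraries entered the fit. At 14 h the 3 mutants were above the 3 controls, with means of 1940 ± 1170 and 675 ± 169 CPM (SD, n = 3), but the log2 difference of 1.52 was not called (SE 0.69, edgeR adjusted p = 0.174). It was called in a fit of the 14 h libraries alone (1.51, adjusted p = 0.0132) and without the 12 h control replicate 1 (1.49, adjusted p = 0.023). At 12 h the difference was 0.69 (SE 0.68, adjusted p = 0.545) and the libraries overlapped.

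Drsl5 was low and near level in the 4 groups. Its group means were 2.48 ± 0.472 CPM in 12 h controls, 1.99 ± 0.418 in 12 h mutants, 2.93 ± 1.02 in 14 h controls and 3.03 ± 2.4 in 14 h mutants (SD, n = 3). The highest library was the 14 h mutant replicate 3 at 5.8 CPM and the lowest 2 were at 1.6 and 1.63 CPM. It was not called in any of the 5 comparisons, and the sign of its 14 h genotype difference of 0.06 (SE 0.47) changed with the library left out.

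Drsl2 counts were high in 2 libraries. They were 6, 8 and 2 in controls at 12 h, 76, 8 and 5 in mutants at 12 h, 1, 0 and 2 in controls at 14 h and 1, 21 and 5 in mutants at 14 h. The 2 high libraries, replicate 1 of the 12 h mutants and replicate 2 of the 14 h mutants, were those with the highest summed midgut markers. There mesh, a protein of midgut cell junctions, had 845 and 516 counts, and LysX, an intestinal lysozyme, had 540 and 238. Both genes were picked after their values were seen, and LysX is not among the 11 midgut markers. Of these 11, 2 and 6 were at 0 counts there, against 4 to 6 in the other libraries. The 12 intestinal and other induced defence genes summed to 111 and 45.3 CPM there. In the 12 h mutant replicate 2, with 8 Drsl2 counts, they summed to 50.6 CPM. Drsl2 failed the filter on low counts and got no test, and the part of midgut RNA in its counts was not tested.

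**Figure D4:**
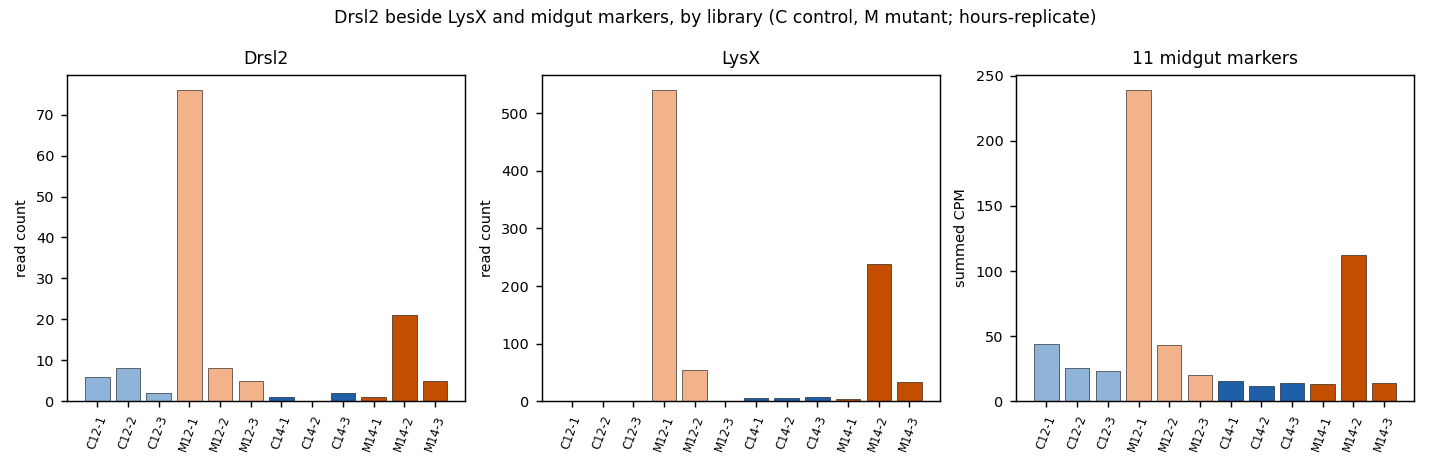
Read counts of Drsl2 (left) and LysX (middle) and the summed TMM-scaled CPM of 11 midgut markers (right), 1 bar per library, with C for control and M for mutant. The 2 libraries with midgut sums of 239 and 112 CPM have 76 and 21 Drsl2 counts, and the other 10 have at most 8.

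Read against the background, the members' genotype calls were as follows. At 12 h, 2 of the 7 tested members were called, both higher in mutants, where 15.8% of all tested genes were called, 7.94% as higher and 7.87% as lower. At 14 h, 3 of 7 were called, all higher, where 15.2% of all tested genes were called, 8.29% as higher and 6.91% as lower. The members' median log2 difference was 0.69 at 12 h and 1.52 at 14 h, beside 0.01 and 0.05 over all tested genes. AttD, called at both times, and Mtk, called at 14 h, passed the filter only through mutant libraries. Their direction in these counts and medians is a description of what the filter kept. Libraries did not overlap between genotypes for 1 member at 12 h, above, where 27.7% of tested genes did not overlap, 14% above and 13.7% below. At 14 h they did not overlap for 5 members, 4 above and 1 below, where 42.5% of tested genes did not, 22.2% above and 20.3% below. Between the times 2 members were above and 1 below without overlap in controls, where 56.4% of tested genes did not overlap, 30.4% above and 26% below. In mutants 3 were above and 1 below, where 55% did not overlap, 29.6% above and 25.4% below. The genotype effect differed between the times for 0 of 7 by edgeR or limma voom and 0 of the 5 with a DESeq2 adjusted p, with 0 of 7 also at an unadjusted edgeR p under 0.05, where 2.72% of tested genes were called, 1.75% as higher and 0.963% as lower.

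**Figure D5:**
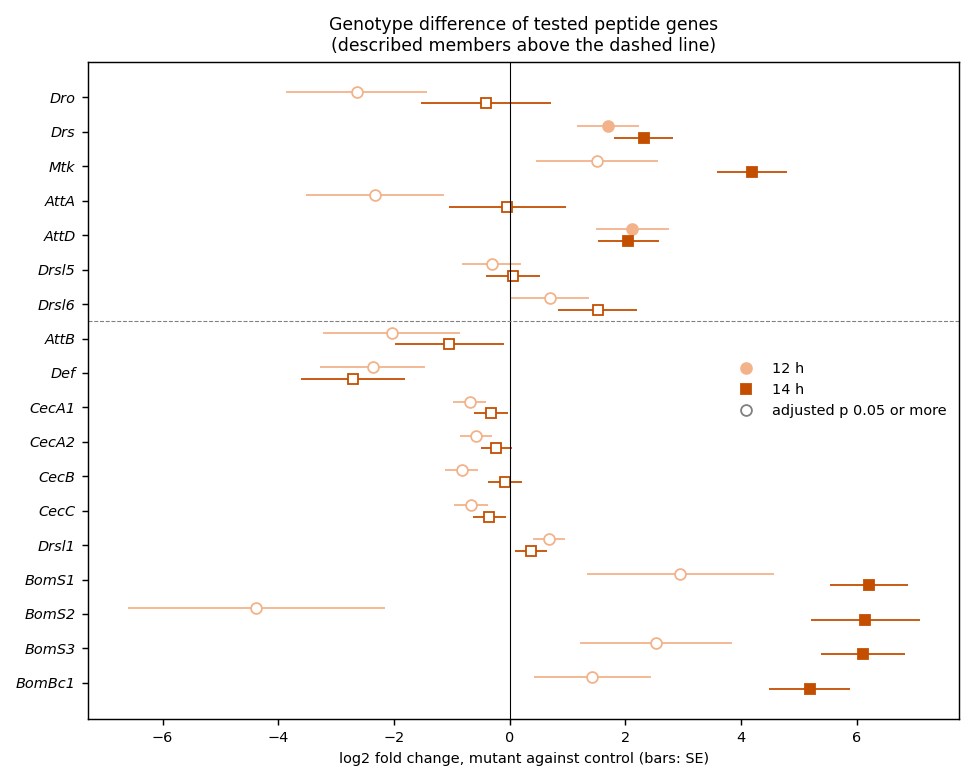
Log2 difference of mutant against control at 12 h (circles) and 14 h (squares) for the 7 tested members, above the dashed line, and 11 other tested peptide genes, with bars of 1 SE; filled points have an edgeR adjusted p under 0.05. Mtk (4.19), Drs (2.32) and AttD (2.05) are filled at 14 h, as are 4 Bomanins from 5.19 to 6.21.

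Compared per kilobase of exon, the members spanned a wide range of levels. Drsl6 ranked 1 to 7 among 17710 genes in the 12 h libraries other than control replicate 1, where it ranked 32, and 21 to 51 at 14 h. Dro ranked 35 to 59 at 14 h. In mean CPM per kb, 14 h controls had 2060 for Dro, 1750 for Drsl6, 320 for AttA and 18.7 for Drs, and 14 h mutants had 5010 for Drsl6, 1540 for Dro, 311 for AttA and 93.7 for Drs. Drsl6 was above Dro in each 14 h mutant, and Dro was above Drsl6 in each 14 h control, by little in replicate 3 (2270 against 2190 CPM per kb). As a share of the counts of the 10 genes, Dro took 59.8% to 66.1% in 14 h controls and 27.6% to 42.8% in 14 h mutants, and Drsl6 took 23.4% to 29.7% and 46.6% to 65.6%.

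CecC encodes a cecropin, a helical peptide active mainly against Gram-negative bacteria, and exceeded all 10 members at 14 h. It ranked 1 by CPM per kb in every 14 h library and 1 to 7 at 12 h. Its mean level at 14 h was 28200 ± 5020 CPM in controls and 22000 ± 3880 CPM in mutants (SD, n = 3), a difference that was not called. The 39 peptide genes in the table, members included, took 1.82% to 3.7% of all counts at 12 h and 3.76% to 6.04% at 14 h.

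Of 29 other peptide genes in the table, 11 were tested. At 12 h edgeR called 0 of 11 between genotypes, with 5 at an unadjusted p under 0.05, DESeq2 called 1 and limma voom 0. At 14 h edgeR called the 4 Bomanins, and DESeq2 and limma voom each called 5. The median log2 difference of the 11 was -0.67 at 12 h and -0.08 at 14 h. Def, which encodes the defensin active mainly against Gram-positive bacteria, stood at 972 ± 285 CPM in 14 h controls and 150 ± 10.8 CPM in 14 h mutants (SD, n = 3). Its libraries did not overlap, but the log2 difference of -2.7 was not called (SE 0.9, edgeR adjusted p = 0.0634). That difference was called by DESeq2 (-2.74, adjusted p = 0.0309) and by limma voom (-2.66, adjusted p = 0.0438). With edgeR it was called without the 12 h control replicate 1 (-2.74, adjusted p = 0.00148) but not without the 14 h mutant replicate 2 (-2.75, adjusted p = 0.162). From 12 to 14 h, 2 of the 11 rose and 1 fell in controls (AttB by 3.89, Def by 2.74, Drsl1 as above). In mutants 8 rose and 1 fell. Of all tested genes, 43.2% were called in controls, 20.8% higher and 22.4% lower, and 45.1% in mutants, 22.6% higher and 22.4% lower. The 4 Bomanins, among the 8, passed the filter only through the 14 h mutants, so their direction here is a description of what the filter kept. Without the 12 h control replicate 1 the rise in controls was 8.49 for AttB and 5.05 for Def, and the call of Def in controls was lost in 6 of 26 alternatives. The rises called in mutants were also unstable for Def (2.42, edgeR adjusted p = 0.0453), lost in 11 of 26 alternatives, and CecB (0.8, adjusted p = 0.0411), lost in 15. That of CecC was lost in 3.

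Of 20 tested genes of the Imd pathway, 4 were higher and 2 lower in mutants at 12 h, where 15.8% of all tested genes were called, and 3 were higher and 2 lower at 14 h, where 15.2% were. Their median log2 differences were 0 and 0.05. At 12 h pirk, a negative regulator of the receptors, was 52.5 ± 17.2 CPM in mutants against 13.2 ± 7.79 in controls (SD, n = 3; log2 2, edgeR adjusted p = 0.00627). PGRP-LB, an enzyme that degrades peptidoglycan, was higher by 2.41 (SE 0.59, adjusted p = 0.0158), and PGRP-SB1, another such enzyme, by 1.21 (adjusted p = 0.047). IKKbeta, a kinase of the pathway, was lower (log2 -0.79, adjusted p = 0.036), as was akirin, a nuclear cofactor of Relish (log2 -0.45, adjusted p = 0.0432).

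At 14 h PGRP-SB1 was higher in mutants by 2.48 (edgeR adjusted p = 0.000933), pirk by 1.84 (adjusted p = 0.0134) and ben, a ubiquitin-conjugating enzyme, by 1.39 (adjusted p = 5.36e-05). The 12 h difference of ben was 0.79 (adjusted p = 0.00382). PGRP-LC, the transmembrane receptor of the pathway, was 196 ± 13.3 CPM in mutants against 344 ± 24.6 in controls (SD, n = 3), lower by a log2 of -0.81 (adjusted p = 0.00677), and PGRP-LA was lower by -0.54 (adjusted p = 0.0408). Among 27 alternatives, the 12 h call was lost in 18 for PGRP-SB1, 20 for akirin, 15 for IKKbeta and 6 for PGRP-LB, which stood at 1.48 without the 12 h mutant replicate 3, and the 14 h call of PGRP-LA was lost in 15.

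Of 20 tested Toll pathway genes, 2 were higher and 2 lower in mutants at 12 h, and 1 was higher and 1 lower in mutants at 14 h, against the same 15.8% and 15.2% of all tested genes. At 12 h spz, which encodes the Toll ligand, was 22 ± 5.39 CPM in mutants against 123 ± 47.3 in controls (SD, n = 3; log2 -2.48, edgeR adjusted p = 0.000155). The serine protease gene grass, upstream of the ligand, was lower at 12 h (log2 -2.08, adjusted p = 0.016) and at 14 h (log2 -1.72, adjusted p = 0.033), with 14 h levels of 166 ± 6.81 against 545 ± 9.53 CPM. Pli, the ubiquitin ligase Pellino, was higher at 12 h (0.67, adjusted p = 0.0183) and 14 h (1.48, adjusted p = 9.25e-05), and nec, a serpin that restrains the cascade, was higher at 12 h (1.29, adjusted p = 0.0394). Without the 12 h control replicate 1 the 12 h difference of grass was -1.02, and without the 12 h mutant replicate 2 that of nec was 0.62, with the call of nec lost in 14 of 27 alternatives. The call of grass was lost in 7 at 12 h and 8 at 14 h, and that of Pli in 11 at 12 h and 0 at 14 h.

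Of 10 tested JAK-STAT genes, 1 was higher at each time and none lower, where 15.8% and 15.2% of all tested genes were called: Socs36E, a feedback inhibitor, at 12 h (log2 2.19, edgeR adjusted p = 0.00537) and TotA, a secreted stress peptide, at 14 h (log2 1.81, adjusted p = 0.0187). The call of TotA was lost in 5 of 26 alternatives that gave a value, 4 of them leaving out a single library, and that of Socs36E in 0 of 27. Among 12 intestinal and other induced defence genes, 3 were tested. LysX was called higher in mutants at 12 h (log2 8.13, adjusted p = 0.0308) with overlapping libraries and 540 of its counts in replicate 1. Without that library it was 5.14 (adjusted p = 0.151), and limma voom did not call it (4.67, adjusted p = 0.529). IM33 was called higher in mutants at 14 h (log2 1.93, adjusted p = 0.0102).

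For each tested member the most similar genes were taken by Pearson r of log2 CPM over the 12 libraries, among 3751 genes with a mean of at least 10 CPM, the 10 members left out. Among these genes Dro was nearest to AttB (r = 0.993), retm and Adk3 (both 0.992), and AttA to jef and retm (both 0.995) and AttB (0.992). Drsl6 was nearest to RpS13 (0.975), TfIIA-S (0.973) and RpL32 (0.972). Mtk was nearest to LManII (0.953), Actn (0.947) and RluA-1 (0.938), and Drs to dop (0.93), CG2975 (0.911) and CG8501 (0.903). For AttD the nearest were CG8036 (0.924), ogre (0.91) and eyg (0.893), and for Drsl5 they were pen-2 (0.876), Nf-YB (0.847) and maf-S (0.844). The libraries share genotype, time and the library that stands apart, so these values describe patterns over the same 12 libraries.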

How the data were processed

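The authors deposited whole-number read counts per gene for 12 libraries, with a different total in each. Per the labels' protocols, RNA was extracted with a NucleoSpin kit and sequenced from Illumina libraries. Per the submitters' processing notes, which state no roles, build BDGP6 was used together with STAR 2.7.6a, cutadapt 1.16, DESeq2 1.30.1 and featureCounts 1.6.3. Strand setting, annotation release and handling of reads that map to several places are not given in the sources used here, so overlapping genes and near-identical copies are uncertain.

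Of 17807 genes, 17710 were matched to symbols and exon lengths of an Ensembl BDGP6 annotation and 97 were not; the latter stayed in the fit unnamed. Counts were fitted with edgeR 4.0.16 (R 4.3.3): filterByExpr left 7584 genes, libraries were scaled by TMM, and a quasi-likelihood F test used 4 group means with 8 residual degrees of freedom. Adjustment of p-values followed Benjamini and Hochberg. Levels per kb use the union of exons. The fit was also run on simulated counts, with changes planted in the 12 h mutants alone. That simulation held no time effect and no library that stands apart, so it does not cover those features of these data.

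Members and gene lists were chosen with earlier results of these data known. All 10 members are named, other peptides by range and counts, and pathway genes only where called between genotypes, at most 6 per list. The peptide, marker and intestinal genes printed beyond this, and the summed Bomanins, were chosen after their values were seen. BaraA2, on the peptide list, was not analysed here. Alternatives were DESeq2 1.42.0, limma voom (limma 3.58.1), other scalings, filters and thresholds, a fit of the compared groups, replicate blocks, and leaving out each library or the libraries that stand apart. No sequences are shown.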

Additional observations from a re-analysis of the deposited data

Results flagged for a closer look

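For BomS2 the genotype effect differed between 12 and 14 h by 10.53 on the log2 scale (edgeR adjusted p = 0.041). BomS2 passed the filter only through the 14 h mutants, so its direction here is a description of what the filter kept. The call was lost in 13 of 25 alternatives, 10 of them leaving out a single library. BomS2 had 6 counts in the 12 h control replicate 3 and 0 in the other 5 libraries at 12 h, so the fitted value depends on the prior count and is no bound. Without that library the difference was 6.12, and over the alternatives the adjusted p ran from 0.00484 to 1.

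For spz the genotype effect differed between the times by 2.38 (edgeR adjusted p = 0.00647), with a lower level in mutants at 12 h and no call at 14 h. Leaving out each library in turn gave 2.17 to 2.7, and the adjusted p over the alternatives ran from 1.04e-05 to 0.0562. The spz level fell from 12 to 14 h in controls (log2 -2.53, adjusted p = 3.1e-05).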

How the results depend on the processing

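Of the 7 tested members, the count called at 12 h between genotypes was the least stable. It was 2 and moved in 22 of 27 alternatives: it was 0 with limma voom, with the compared groups only, with an adjusted p under 0.01 and without the 2 libraries with midgut genes, and 1 with RLE size factors, without a filter, with at least 5 CPM in 3 libraries and without the 3 libraries that stand apart, where Drs and AttD were both lost and the 1 call was AttA. Leaving out each library in turn gave 0 to 1. The 14 h count of 3 became 1 with the 5 CPM filter, under which fewer members are tested, and ran from 2 to 4 when each library was left out. The time count in controls, 3, became 1 with the compared groups only and 1 at 0.01. The time count in mutants, 4, ran from 3 to 5, and the change of the genotype effect stayed at 0 in all 25. DESeq2 gave no adjusted p for Dro in any comparison, or for AttD in that one.

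Deviations from group means correlated at -0.257 to 0.238 in 18 pairs of libraries with a shared replicate number, and 3 pairs were over 0.1. Pairs with different numbers were not compared, so these values do not settle whether the replicate numbers pair the libraries. With the replicate block the 12 h count was 1 over all libraries and 0 within time, and the 14 h count was 3 in both. The time counts of 3 and 4 and the count of 0 for the genotype effects had the same values with the block over all libraries, the form of it run for them.

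Signs changed in these cases, and the cause was not tested. Ranges are over leaving out each library in turn. At 12 h Dro ran from -3.95 to 1.48 and AttA from -3.62 to 2.09, positive without the 12 h control replicate 1, and without the 3 libraries they became 1.95 (adjusted p = 0.0573) and 2.55 (adjusted p = 0.0385), a call of AttA as higher in mutants. For the change of the genotype effect with time, Dro ran from -1.93 to 3.49, AttA from -2.17 to 3.54, Drs from -0.01 to 1.49, AttD from -0.53 to 0.37 and Drsl5 from -0.52 to 0.69. In the same comparison Dro became -2.47, AttA -2.75 and AttD 0.11 without the 3 libraries, and AttD became 0.2 without the 2 libraries and 0.23 with limma voom. At 14 h AttA ran from -0.17 to 0.16 and became 0.01 with the replicate block over all libraries. Drsl5 at 14 h ran from -0.83 to 0.38 and became -0.12 with limma voom, -0.04 with the replicate block over all libraries and -0.13 within time. The time difference of Drsl5 ran from -0.08 to 0.38 in controls and from -0.29 to 0.91 in mutants. With library size alone akirin became 0.06 over time in mutants.

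Over all genes, the 12 h count of 1199 became 459 with the compared groups only, 798 without the 12 h mutant replicate 1, 676 and 792 without the 2 or 3 libraries, and 520 at 0.01. The 14 h count of 1153 became 2128 with the compared groups only, 701 to 767 without a 14 h control and 636 at 0.01. The count of 206 for the change of the genotype effect became 338 with DESeq2, 430 without the 12 h control replicate 1, 105 to 133 without single 14 h libraries, 84 without the 2 libraries and 71 at 0.01. The levels per kb did not change with the longest transcript in place of the union of exons. AttC, DptB and Drsl2 are limited by depth, with 1 count, 11 counts and mostly under 10 counts per library.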
